A study of Mus musculus with 2 samples.

Results

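The Ccr2/Fcgr4 macrophage-like cells described here were 432 of the 3173 cells that passed the quality limits in single-cell RNA-seq of the CD11c-selected fraction of tumours from PyMT C57BL/6N mice. They were chosen by their own transcripts, counted as unique molecular identifiers (UMIs). A cell had to hold at least 2000 UMIs, at most 10% of them mitochondrial, with at least 0.1% from the complement genes C1qa, C1qb and C1qc together. Pf4 had to stay under 0.1% and Spp1 under 0.4% of UMIs. The sum of the cell-cycle genes Top2a, Birc5, Ube2c and Cdk1 had to stay under 3 UMIs, and cells with 2 or more UMIs of both Ear2 and Fn1 were left out. Within that macrophage gate, the summed UMIs of Ms4a4c, Ly6i, Fcgr4, Clec12a and Ccr2 had to reach 3 and exceed the summed UMIs of Acp5, Olfml3, Vcam1 and Tmem119. Replicate 1 held 255 such cells among 1958 (13.02%, exact 95% interval 11.6 to 14.6) and replicate 2 held 177 among 1215 (14.6%, 12.6 to 16.7).

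Both libraries are of wild-type samples, labelled as myeloid cells, with no treatment and no second condition, so comparisons were made between cell classes within the libraries. In PyMT mice a transgene for the middle T antigen of polyoma virus gives rise to mammary tumours. CD11c is an integrin chain, encoded by Itgax, of dendritic cells and many macrophages. The labels do not say whether the 2 libraries came from separate animals. The tests take out the mean difference between libraries, so p-values measure only how differences among classes varied between these 2 libraries. That variation may be technical. The classes were the Vcam1 class (the same macrophage gate with the Acp5, Olfml3, Vcam1 and Tmem119 sum at 3 or more and above the other sum; 224 and 204 cells in replicates 1 and 2), the Ear2 Fn1 class (2 or more UMIs of each of those genes; 182 and 110 cells) and the Cd209a class (C1q-low cells with 2 or more Cd209a UMIs, dendritic-like; 136 and 127 cells). Classes gated on Pf4, on Spp1 and on Xcr1 with Clec9a were also summed.

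Monocytes leave the blood for tissues and tumours along gradients of Ccl2 and related chemokines, which they sense through the receptor Ccr2. In the tissue they can lose monocyte genes such as Ly6c2 and take on macrophage genes such as those of C1q, the first component of the classical complement pathway. Fcgr4 encodes mouse Fc gamma receptor IV, an activating receptor for IgG, and Cxcl9 encodes a chemokine induced by interferon gamma that attracts T cells through Cxcr3.

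The genes that chose the cells are given here as levels only, as CPM, that is, counts in 1e+06 UMIs scaled by edgeR's trimmed mean of M values (TMM). Fcgr4 (chr1:171018920-171029761, plus strand, GRCm38) had 333 and 345 CPM in the Ccr2/Fcgr4 cells of replicates 1 and 2, against 168 and 168 CPM in the Vcam1 class. The next highest class was the Pf4 class in replicate 2 with 179.5 CPM, and the Cd209a class had 19.5 and 20.9 CPM. Ccr2 (chr9:124101950-124113557, plus strand) had 216 and 285 CPM in the Ccr2/Fcgr4 cells, against 22.4 and 21.6 CPM in the Vcam1 class. Ccr2 was no mark of these cells alone: the Ear2 Fn1 class had 309.6 and 282 CPM and the Pf4 class 242 and 274 CPM, and the range of the Ccr2/Fcgr4 cells overlapped both. Ms4a4c (chr19:11404770-11427246, plus strand), a member of the MS4A membrane protein family, had 299 and 265 CPM in the Ccr2/Fcgr4 cells, against 203 and 191 CPM in the Cd209a class and 80.9 and 47.9 CPM in the Vcam1 class. Clec12a (chr6:129342691-129365303, plus strand), an inhibitory C-type lectin, had 333 and 410 CPM in the Ccr2/Fcgr4 cells, against 248 and 314 CPM in the Pf4 class and 87.0 and 66.6 CPM in the Vcam1 class. Ly6i (chr15:74979534-74983430, minus strand) had 43.6 and 15.3 CPM, against 0 and 0 UMIs in the Vcam1 class. The genes that chose the Vcam1 class were lower in the Ccr2/Fcgr4 cells but present: Acp5, a lysosomal acid phosphatase, had 173 and 147 CPM in them, against 826 and 746 CPM in the Vcam1 class.

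**Figure D1:**
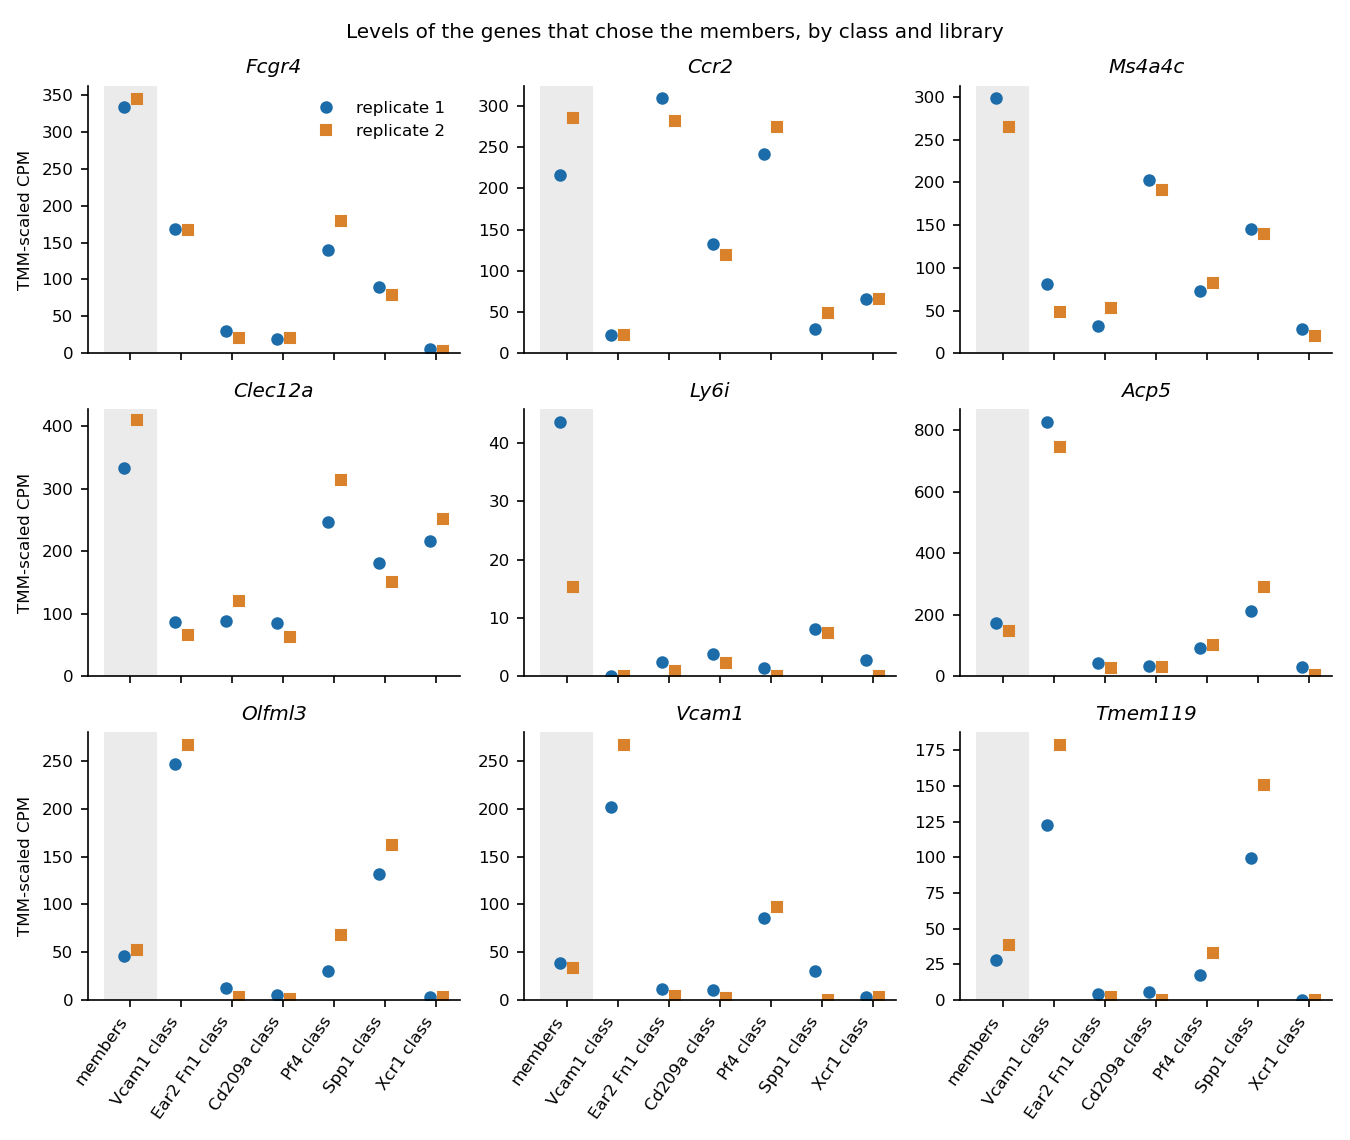
Levels of 9 genes used by the rule, in TMM-scaled CPM on linear axes that start at 0, in the 7 gated classes; "members" are the Ccr2/Fcgr4 cells, and each point is the summed UMIs of a class in 1 library. Fcgr4 and Ms4a4c were highest in the Ccr2/Fcgr4 cells of both libraries, while Ccr2 reached similar levels in the Ear2 Fn1 and Pf4 classes.

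The sequences upstream of Cxcl9, Fcgr4 and Ccr2 are shown because Cxcl9 was higher in cells with more Fcgr4 than Ccr2 UMIs, as described further on. That contrast rested mostly on replicate 1, and a second method, DESeq2, did not call it (adjusted p = 0.225). Capitals mark a match, on either strand, to GAAANNGAA, the core letters of the interferon-stimulated response element. The sequences are from RefSeq (GRCm38.p6), 5′ to 3′ on the strand of the gene, and end at the base before the RefSeq start for Cxcl9 (chr5:92328080-92328329, minus strand) and Fcgr4 (chr1:171018676-171018925, plus strand). For Ccr2, 30 bases around the match are given (chr9:124102087-124102116, plus strand). The RefSeq start of Ccr2 lies downstream of the GENCODE start, so this stretch is inside the GENCODE gene.
Cxcl9: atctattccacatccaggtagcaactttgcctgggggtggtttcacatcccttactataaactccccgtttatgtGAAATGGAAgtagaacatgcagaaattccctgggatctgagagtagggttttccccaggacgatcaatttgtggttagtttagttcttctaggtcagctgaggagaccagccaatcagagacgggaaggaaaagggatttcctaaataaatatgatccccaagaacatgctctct
Fcgr4: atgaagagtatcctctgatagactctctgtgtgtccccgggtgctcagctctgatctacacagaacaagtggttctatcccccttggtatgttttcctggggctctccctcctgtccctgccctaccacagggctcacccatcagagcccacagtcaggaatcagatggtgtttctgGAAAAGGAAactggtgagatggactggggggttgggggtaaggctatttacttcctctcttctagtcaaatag
Ccr2: tatctccgccTTCTCTTTCtgcaggaaact
The match began 175 bases upstream of the RefSeq start in Cxcl9, 73 in Fcgr4 and 86 in Ccr2. Of all 32851 promoters in the table, 7.13% held this motif in the 250 bases before the start and 7.02% held TTCNNNGAA, the gamma-activated site, of which the 3 genes had no match there. Neither motif was in that window of Ms4a4c or Clec12a. Of 19 promoters of 16 genes on a list of interferon gamma induced genes, 12 held GAAANNGAA and 10 held TTCNNNGAA, against 1 and 3 of the 16 promoters of 12 classical monocyte genes. The letters in a window do not show binding by any factor.

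The 5 genes contributed unequally. At least 1 UMI of Clec12a was found in 80.4% and 83.6% of the Ccr2/Fcgr4 cells of replicates 1 and 2, of Fcgr4 in 72.9% and 74.6%, of Ccr2 in 60.4% and 66.7%, of Ms4a4c in 63.1% and 49.7%, and of Ly6i in 10.6% and 3.39%. Epithelial cells of the same libraries, which should lack these genes, were gated on keratins and Epcam (107 and 40 cells). Only C1q-low cells that met no other class gate were taken. Their medians were 8635 and 9531 UMIs, against 5416 and 6400 UMIs in the Ccr2/Fcgr4 cells. The shares in them were 5.61% and 2.50% for Clec12a, 0.935% and 2.50% for Fcgr4 and 3.74% and 2.50% for Ccr2. The gate leaves out epithelial barcodes that carry much macrophage RNA, so these shares may understate the background. Both receptor genes were found in 98 of 255 and 84 of 177 Ccr2/Fcgr4 cells, Ccr2 without Fcgr4 in 56 and 34, and Fcgr4 without Ccr2 in 88 and 48. The median sum of the 5 genes was 7 UMIs in both libraries, and 39.6% and 37.9% of cells had no UMI of the 4 opposing genes. At the edge of the rule stood 34 and 19 cells with a sum of exactly 3 above the opposing sum, against 49 and 16 cells left out with a sum of 2 above it and 12 and 13 left out with equal sums of 3 or more. Plac8, a monocyte gene that the rule did not use, had 233 and 402 unscaled CPM in the cells just inside, 102 and 166 in those with a sum of 2, and 59.5 and 11.0 in those with equal sums. Mrc1 had 92.1 and 169 unscaled CPM in the cells just inside, 219 and 142 in those with a sum of 2, and 0 and 87.8 in those with equal sums.

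Macrophage markers were present. All 8 macrophage markers, among them Adgre1, Csf1r, Cd68, Fcgr1, Mertk, Cd14 and Apoe, were detected in both libraries, summing to 18703 and 28026 CPM in the Ccr2/Fcgr4 cells, against 35555 and 44010 CPM in the Vcam1 class. Most of each sum was Apoe, whose levels are given further on with those of Adgre1, which was not called. Of 7 classical monocyte markers, 6 were detected in both libraries and none was at 0 in both, summing to 620.2 and 379 CPM in the Ccr2/Fcgr4 cells, against 53.7 and 9.93 CPM in the Vcam1 class. This sum was not particular to them. It was higher in the Pf4 class (671 and 416 CPM), the Cd209a class (1088 and 884 CPM) and the Xcr1 class (1065 and 437 CPM). It was lower in the Spp1 class (449 and 271 CPM) and the Ear2 Fn1 class (271 and 147 CPM). Descent from monocytes was not measured. The 6 markers of T and NK cells summed to 5.97 and 11.9 CPM in the Ccr2/Fcgr4 cells, against 1.36 and 7.59 CPM in the Vcam1 class, with 2 of them, Cd3e and Gzma, at 0 in the Ccr2/Fcgr4 cells of both libraries. Itgax, which encodes the selected CD11c, had 104 and 116 CPM in them, against 198 and 210 CPM in the Vcam1 class. At least 1 Itgax UMI was found in 37.3% and 38.4% of the Ccr2/Fcgr4 cells.

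The libraries held 17369071 and 13317214 UMIs in all. The Ccr2/Fcgr4 cells held 1630188 and 1189375 of them, with medians of 1602 and 1701 genes and 1.99% and 2.17% mitochondrial UMIs per cell. The Vcam1 class was deeper per cell, with medians of 5839.5 and 7708.5 UMIs. The libraries shared 2 barcodes among cells past the limits and 0 among the Ccr2/Fcgr4 cells. A doublet caller marked 31 and 12 barcodes, 6 and 2 of them Ccr2/Fcgr4 cells. Among barcodes of at least 1000 but under 2000 UMIs, which the rule leaves out, 31 of 287 and 7 of 116 met its other conditions. Intervals on shares cover counting error only.

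The first comparison asked how the Ccr2/Fcgr4 cells differed from the Vcam1 class of the same macrophage gate in genes that no gate used. Monocyte genes and several CC chemokine and interferon-stimulated genes were higher in the Ccr2/Fcgr4 cells. Some lysosomal hydrolase and microglia-type genes were lower. Tests were by edgeR's quasi-likelihood method on UMIs summed per class and library, with the library as a block, and adjusted over all genes. Of 7492 genes tested, 313 (4.18%) were higher and 201 (2.68%) lower at an adjusted p under 0.05, and all 514 had the same sign in each library alone. The calls were made on these same 2 libraries, so the shared sign adds no support. With uncalled genes included, log2 folds in replicate 1 and replicate 2 correlated only in part (Pearson 0.499, Spearman 0.410). DESeq2 called 157 higher and 64 lower, and a fit without the library block called 89 and 44. The classes were cut in the same cells by genes that vary with others, so these tests describe the difference between classes as cut. Among the genes described, those that neither DESeq2 nor the fit without the block called were Cxcl9, Gbp2, Irgm1, Ccl3, Ccl5, Ccl8, Ccl12, Cxcl13, Cx3cr1, Itgax, Folr2, Fcgr1, F13a1, Bst2, Cd40, Havcr2, Lgals9, Il1a, Il1rn, Tnfsf9, Arg1, Mmp12, Irf4, Batf, Nfkb1, Stat3 and Id3. The fit without the block alone also lost Ccl2, Ccl7, Irf7, Apoe, Areg, Clec4a2, Clec4a3, Clec4e, Sirpb1c, Ly6e, Fcgrt, Fcgr2b, H2-DMb2 and Cd47, and DESeq2 alone lost Gzmc. DESeq2 gave Ly6c1 and Tlr12 no adjusted p, and the fit without the block called only Tlr12 of this pair.

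Genes of classical monocytes were higher in the Ccr2/Fcgr4 cells: 6 of 11 tested rose and none fell, with a median log2 fold of 2.22, against 0.00 over all genes tested. DESeq2 called 5 of them higher and the fit without the block 4. Plac8 (chr5:100553725-100572245, minus strand) had 361 and 294 CPM in the Ccr2/Fcgr4 cells, against 26.5 and 7.01 CPM in the Vcam1 class. The groups did not overlap, and the log2 fold was 4.37 ± 0.27 (SE; adjusted p = 7.82e-10). Ly6c2 (chr15:75108158-75111970, minus strand), whose protein is part of the Ly6C antigen of inflammatory monocytes, had 197 and 57.8 CPM, against 10.9 and 0.584 CPM, a log2 fold of 4.53 ± 0.47 (adjusted p = 1.4e-06). Neither gene was particular to these cells, since Plac8 had 1017 and 852 CPM in the Cd209a class and Ly6c2 had 263 and 124 CPM in the Spp1 class. The calcium-binding S100 genes moved with them. S100a6 had 773 and 757 CPM, against 104 and 91.7 CPM (2.97 ± 0.19), and S100a4 had 349 and 555 CPM, against 47.6 and 73.0 CPM (2.89 ± 0.29). F13a1, for a coagulation factor subunit, and the receptor gene Sirpb1c also rose. All 4 tested genes of the LY6 family rose (Ly6c2, Ly6c1, Ly6a and Ly6e). Ly6a had 595 and 203 CPM, against 90.4 and 20.4 CPM (2.88 ± 0.27). Ly6c1 and Ly6c2 are near-identical, so reads may be split between them. Lyz2, a lysozyme gene shared by monocytes and macrophages, had 8916 and 11660 CPM, against 7754 and 11562 CPM, and was not called (0.10 ± 0.15). Fewer cells carrying a transcript and less of it per cell cannot be told apart in such sums.

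Of 17 pattern recognition receptor genes tested, 4 rose (Clec4a1, Clec4a2, Clec4a3 and Clec4e, all C-type lectin receptors) and 1 fell (Tlr12), and the fit without the block called 1 higher. The C-type lectin genes Clec4b1, Mrc1 and Mgl2, which are not on that list, also rose. Clec4b1 had 204 and 263 CPM in the Ccr2/Fcgr4 cells, against 37.4 and 15.2 CPM in the Vcam1 class (log2 fold 3.16 ± 0.25, adjusted p = 3.93e-08). Clec4a1 had 145 and 213 CPM, against 27.2 and 34.5 CPM (2.54 ± 0.21, adjusted p = 3.93e-08). Clec4e, the receptor Mincle for fungal and mycobacterial glycolipids, had 69.3 and 150 CPM, against 29.2 and 44.97 CPM (1.54 ± 0.23). Mrc1 (chr2:14229392-14332057, plus strand), the mannose receptor, had 136 and 162 CPM, against 44.2 and 42.0 CPM (1.78 ± 0.18, adjusted p = 6.79e-07). Mgl2, a galactose-type lectin, had 138 and 208 CPM, against 27.2 and 14.6 CPM (3.04 ± 0.30). In the 5 genes with levels given here, both libraries of the Ccr2/Fcgr4 cells lay above both libraries of the Vcam1 class. All 5 were already called higher, so this describes their levels and adds no further support. Mgl2 is also on the list of 8 markers of type 2 dendritic cells, which summed to 249 and 392 CPM in the Ccr2/Fcgr4 cells, against 76.1 and 36.8 CPM in the Vcam1 class, with no marker at 0 in both libraries. The part of such cells in these results was not tested. Among Fc receptors, 3 of 6 tested rose: Fcgrt, Fcgr1, which binds IgG with high affinity, and the inhibitory Fcgr2b. Fcgr1 had 241 and 249.9 CPM, against 168 and 151 CPM (0.62 ± 0.18).

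**Figure D2:**
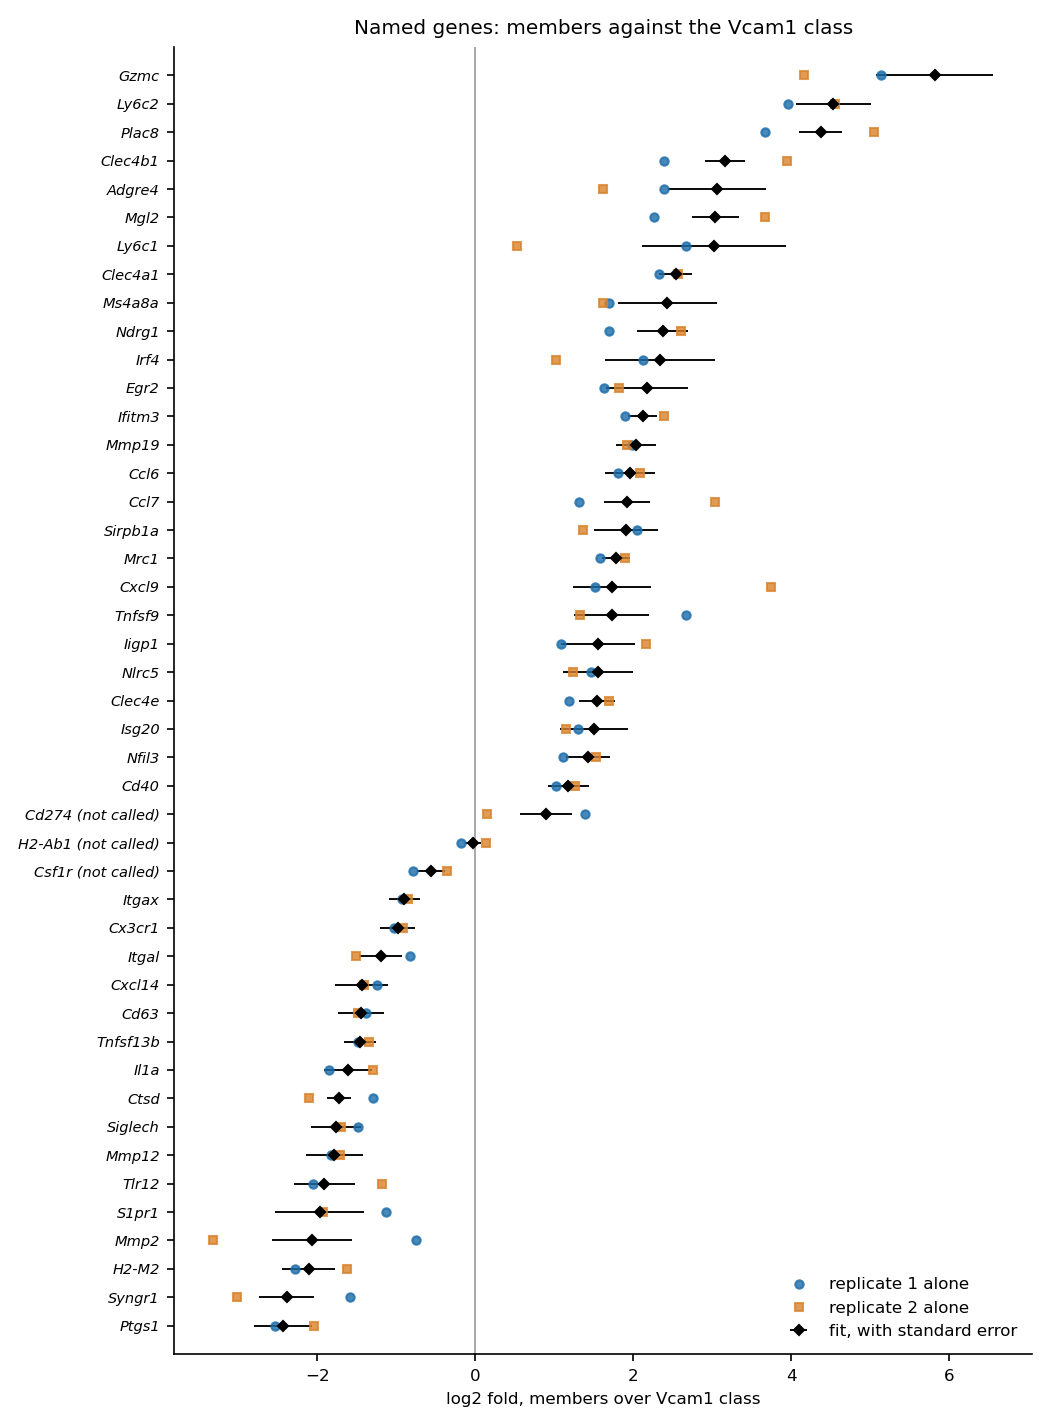
Log2 fold of the Ccr2/Fcgr4 cells ("members") over the Vcam1 class for 45 named genes, with the fitted value and its standard error (diamonds) and each library alone (circles and squares); 4 genes with 3 or fewer UMIs in a class are left out. Plac8 and Ly6c2 lie at 4.37 and 4.53, and Ctsd at -1.72.

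Some interferon-stimulated genes rose. Of 23 tested genes on the type I interferon list, 9 rose and 1 (Bst2) fell, with a median log2 fold of 0.76. DESeq2 called 5 higher, the fit without the block 1, and cells without an Ear2 or Fn1 UMI gave 5. Ifitm3, which restricts virus entry, had 2031 and 1480 CPM in the Ccr2/Fcgr4 cells, against 544 and 281 CPM in the Vcam1 class (2.12 ± 0.18, adjusted p = 1.23e-07). Irf7, a transcription factor that drives type I interferon genes, had 379 and 226 CPM, against 188 and 72.4 CPM (1.28 ± 0.22). On the interferon gamma list 5 of 16 rose and none fell, with a median of 0.71, while DESeq2 and the fit without the block each called 0 (4 at an unadjusted p under 0.05 in each), and cells without a Pf4 UMI or without an Ear2 or Fn1 UMI gave 3. Cxcl9 (chr5:92321347-92328079, minus strand) had 489 and 39.96 CPM in the Ccr2/Fcgr4 cells, against 169 and 1.17 CPM in the Vcam1 class (1.73 ± 0.49, adjusted p = 0.0338). The libraries differed more than the classes did: replicate 1 of the Vcam1 class lay above replicate 2 of the Ccr2/Fcgr4 cells, and Cxcl9 was not called by DESeq2 (adjusted p = 0.779) or without the block (adjusted p = 0.559). Gbp2 and Irgm1, both for interferon-induced GTPases, rose by 1.30 and 1.31 on the log2 scale. Cxcl10 had 249.8 and 154 CPM, against 330.2 and 207 CPM, and was not called (-0.40 ± 0.31).

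Of 12 CC chemokine genes tested, 7 rose and 1 fell, with a median log2 fold of 1.18, and DESeq2 called 4 and the fit without the block 2 higher. Ccl2, a ligand of Ccr2 itself, had 1187 and 552 CPM in the Ccr2/Fcgr4 cells, against 485 and 113 CPM in the Vcam1 class (1.68 ± 0.25). Ccl7, a ligand of the same receptor, had 1377 and 587 CPM, against 552 and 70.1 CPM (1.92 ± 0.29), and was not called without the block (adjusted p = 0.309). Ccl6 had 531 and 510.1 CPM, against 149 and 119 CPM (1.96 ± 0.31). Ccl6 and Ccl9 are mouse chemokines made by myeloid cells, and Ccl9 had 599 and 706 CPM, against 229 and 233 CPM (1.49 ± 0.23). Ccl5, a chemokine that attracts T cells and monocytes, had 695 and 520.3 CPM, against 306 and 180 CPM (1.36 ± 0.35, adjusted p = 0.0167). Ccl8 and Ccl12 rose by 0.95 and 0.998. Ccl3 fell, with 489 and 449.7 CPM, against 1281 and 571 CPM (-0.97 ± 0.29). Ccl2, Ccl7, Ccl8 and Ccl12 differed between libraries in both classes, higher in replicate 1.

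Among macrophage genes calls went both ways, while the called lysosomal and microglia-type genes were all lower. Of 20 tested macrophage maturation genes 2 rose (Mrc1 and the folate receptor gene Folr2) and 5 fell, with a median log2 fold of -0.13. Apoe, for a lipid-carrying protein, had 15356 and 22829 CPM in the Ccr2/Fcgr4 cells, against 31520 and 38919 CPM in the Vcam1 class (-0.88 ± 0.19). Csf1r, the receptor on which macrophages depend, had 308 and 451 CPM, against 532 and 575 CPM, and missed the threshold (-0.56 ± 0.18, adjusted p = 0.0723). Neither DESeq2 nor the fit without the block called Csf1r. It was called lower under 5 other alternatives (adjusted p 0.00138 to 0.0486), cells with no Pf4 UMI among them (-0.86). The smallest of these p-values came from a fit of the 2 classes alone, which leaves 1 residual degree of freedom. Adgre1, which encodes F4/80, had 256 and 329 CPM, against 266 and 335 CPM (-0.05 ± 0.15, not called). On the lysosome and lipid list 10 of 23 fell and none rose, with a median of -0.39, and DESeq2 called 7 and the fit without the block 5 lower. The protease gene Ctsd had 587 and 481 CPM, against 1441 and 2072 CPM (-1.72 ± 0.15, adjusted p = 1.58e-07). Ctsb, Ctsz, Lipa and Psap also fell, by 0.84, 0.98, 0.93 and 0.56 on the log2 scale. Of 12 microglia-type genes 4 fell and none rose. Cx3cr1, the fractalkine receptor of non-classical monocytes and microglia, had 89.0 and 98.6 CPM, against 183 and 188 CPM (-0.98 ± 0.22), and was called neither by DESeq2 nor without the block. The same held for Itgax (-0.89 ± 0.19, adjusted p = 0.00456).

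Most antigen presentation genes tested were not called. H2-Ab1, an MHC class II chain, had 14723 and 18816 CPM in the Ccr2/Fcgr4 cells, against 16684 and 17075 CPM in the Vcam1 class (-0.03 ± 0.10, adjusted p = 0.926), and the ranges overlapped. On the class II list 1 of 10 tested genes rose (H2-DMb2) and 1 fell (Ctss, for cathepsin S), and on the class I list 2 of 19 rose. Among costimulatory and checkpoint genes, Cd40 and Cd47 rose, Havcr2 and Lgals9 fell, and Cd274, for the checkpoint ligand PD-L1, had 37.0 and 20.4 CPM, against 12.9 and 18.1 CPM, and was not called (0.90 ± 0.33, adjusted p = 0.124). Of 16 cytokine genes, Tnfsf9 and the interleukin-1 receptor antagonist gene Il1rn rose, and Il1a and Tnfsf13b, which encodes the B-cell factor BAFF, fell. Il1a had 58.6 and 68.9 CPM, against 215 and 171 CPM (-1.61 ± 0.30). Nos2, the inducible nitric oxide synthase, had 4 UMIs in replicate 1 and 0 in replicate 2 of the Ccr2/Fcgr4 cells, where 3 UMIs would be 2.55 CPM, and was too low to be tested. Arg1, which competes for the same substrate, had 20 UMIs in the Ccr2/Fcgr4 cells and 2 in the Vcam1 class over both libraries, a pooled ratio of 11.4 with an exact 95% counting interval of 2.77 to 100.5. Of its UMIs, 10 came from 1 cell of replicate 2.

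Of 22 myeloid transcription factor genes tested, 7 rose and none fell, with a median log2 fold of 0.50. They were Irf4, Nfil3, Cebpb, Id3, Batf, Nfkb1 and Stat3, of which DESeq2 and the fit without the block each called 2, Nfil3 and Cebpb. Cebpb, a factor of monocyte differentiation, had 84.8 and 95.2 CPM in the Ccr2/Fcgr4 cells, against 37.4 and 32.1 CPM in the Vcam1 class (1.37 ± 0.20). Nfil3 had 34.7 and 51.0 CPM, against 14.9 and 16.4 CPM (1.43 ± 0.28). Of 17 growth factor and matrix genes, 6 rose and 4 fell, while DESeq2 called 3 higher and 0 lower (with no adjusted p for Mmp2) and the fit without the block 1 higher and 0 lower, with 10 and 9 of the 17 at an unadjusted p under 0.05. The matrix protease gene Mmp19 had 49.0 and 74.0 CPM, against 10.9 and 18.1 CPM (2.04 ± 0.25), while Mmp12, for macrophage elastase, had 95 and 79.1 CPM, against 340.4 and 264 CPM (-1.78 ± 0.36). Areg, an epidermal growth factor receptor ligand, had 76 UMIs, against 3, a pooled ratio of 28.8 (counting interval 9.502 to 143), with up to 24 UMIs in 1 cell of replicate 2. Among cells with no Ear2 or Fn1 UMI its log2 fold was 2.93 (adjusted p = 0.224). The granzyme gene Gzmc had a log2 fold of 5.82 ± 0.74, but 152 of its 153 UMIs in replicate 1 and 75 of its 76 UMIs in replicate 2 came from 1 cell each. Cxcl13 had 46 of its 51 UMIs in 1 cell.

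**Figure D3:**
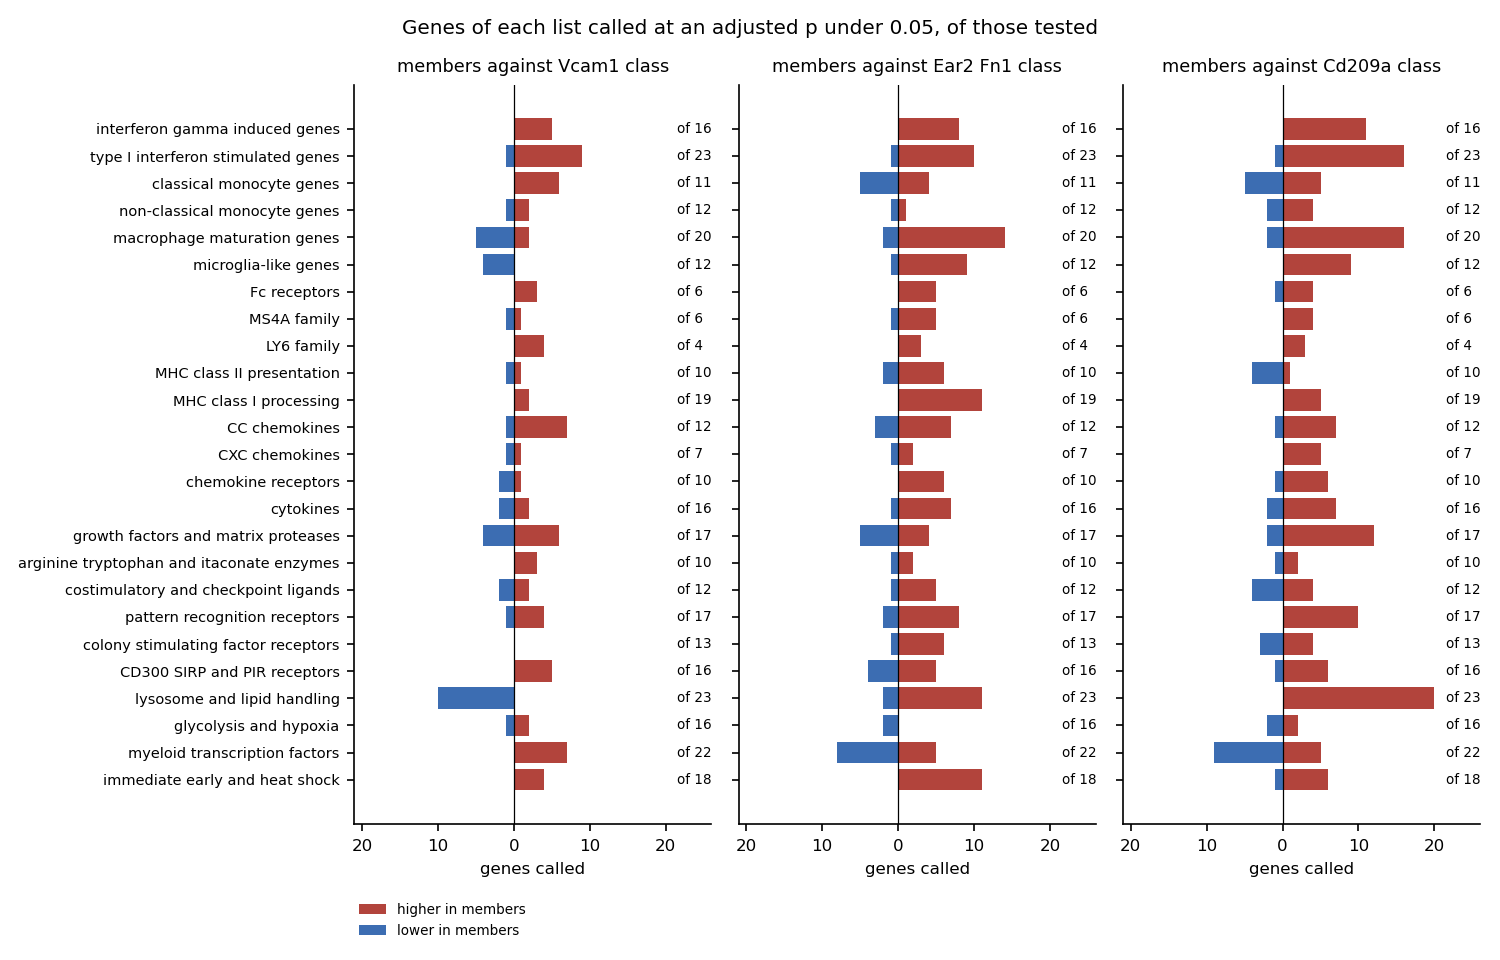
Number of genes of each of 25 lists called higher (red, to the right) or lower (blue, to the left) in the Ccr2/Fcgr4 cells ("members") against the Vcam1, Ear2 Fn1 and Cd209a classes, with the number tested at the right of each bar. Lysosome and lipid genes were lower against the Vcam1 class (10 of 23) and higher against the Cd209a class (20 of 23).

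The second comparison set the Ccr2/Fcgr4 cells against the Ear2 Fn1 class, which had Ccr2 at a like level and C1q low (C1qa 3807 and 4248 CPM in the Ccr2/Fcgr4 cells, against 461 and 515 CPM). Most macrophage maturation and microglia-type genes were higher in the Ccr2/Fcgr4 cells, and Retnla and Lyz1 were among the lower genes. Of 7492 genes, 838 (11.2%) were higher and 871 (11.6%) lower. Without the block, 527 and 555 were called, and DESeq2 called 526 and 533. Of 20 macrophage maturation genes 14 rose and 2 fell (Cd163 and Mrc1), with a median log2 fold of 1.69, against 0.01 over all genes, and 9 of 12 microglia-type genes rose and 1 fell. Apoe had 15356 and 22829 CPM, against 1563 and 1275 CPM (3.76 ± 0.21, adjusted p = 3.09e-11). Ms4a7 had 811 and 1157 CPM, against 58.1 and 29.1 CPM (4.43 ± 0.25, adjusted p = 3.09e-11). C5ar1, the receptor for complement fragment C5a, had 297 and 371 CPM, against 25.7 and 32.1 CPM (3.52 ± 0.21). Fcgr1 rose by 3.16 ± 0.24. Mertk, a receptor for uptake of dying cells, had 22 UMIs, against 0 in the Ear2 Fn1 class. With 3 UMIs put in place of the 0 it was 5.89-fold higher, a value that is no confidence limit.

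Of 16 cytokine genes tested against the Ear2 Fn1 class, 7 rose and 1, Il6, fell. Tnf had 311 and 204 CPM in the Ccr2/Fcgr4 cells, against 45.7 and 32.1 CPM in the Ear2 Fn1 class (2.73 ± 0.27), and the anti-inflammatory cytokine gene Il10 had 105 and 124 CPM, against 19.1 and 9.03 CPM (3.02 ± 0.33). Il6 was lower, with 12.5 and 10.2 CPM, against 71.4 and 399 CPM (-4.04 ± 0.49). Among CC chemokines 7 of 12 rose and 3 fell. Ccl8 had 914 and 290.2 CPM, against 75.5 and 18.1 CPM (3.64 ± 0.25), and Ccl6 had 531 and 510.1 CPM, against 3241 and 3490.2 CPM (-2.69 ± 0.30). Of 19 class I genes 11 rose and none fell, against 7 by DESeq2 and 5 without the block. B2m, the class I light chain, had 9119 and 8199 CPM, against 3906 and 3783 CPM (1.17 ± 0.10). H2-Ab1 rose by 0.49 ± 0.10, a call lost without the block. Classical monocyte genes went both ways, with 4 of 11 higher and 5 lower: Ly6c2 had 197 and 57.8 CPM, against 8.30 and 1.003 CPM (4.76 ± 0.53), and S100a4 had 349 and 555 CPM, against 1873 and 2487 CPM (-2.29 ± 0.25). Retnla, a secreted resistin-like protein of alternatively activated macrophages, had 731 and 136 CPM, against 14097 and 14299 CPM (-5.42 ± 0.34). Lyz1 fell by 4.67 ± 0.22 on the log2 scale. The adhesion receptor gene Cd2 had 2 UMIs, against 189, a pooled ratio 118-fold lower (counting interval 32.1 to 978). Mrc1 lay between classes: 136 and 162 CPM in the Ccr2/Fcgr4 cells, against 257 and 292 CPM in the Ear2 Fn1 class (-0.89 ± 0.15).

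The third comparison set the Ccr2/Fcgr4 cells against the dendritic-like Cd209a class, which shared Ms4a4c. Of 7492 genes, 935 (12.5%) were higher and 883 (11.8%) lower. Most macrophage maturation and lysosome genes, 7 of 12 CC chemokine genes (with 1 lower) and 5 of 7 CXC chemokine genes were higher, and Klrd1, Flt3 and Zbtb46 were among the lower genes. Of 23 lysosome and lipid genes 20 rose and none fell, with a median log2 fold of 1.85, against 0.04 over all genes, and 16 of 20 macrophage maturation genes rose and 2 fell. C3ar1, the receptor for complement fragment C3a, had 240.3 and 243 CPM in the Ccr2/Fcgr4 cells, against 5.20 and 1.16 CPM (6.24 ± 0.31, adjusted p = 3.79e-12). Csf1r rose by 2.77 ± 0.24. Interferon genes were again higher, with 16 of 23 on the type I list and 11 of 16 on the interferon gamma list called, against 8 and 5 by DESeq2 and 7 and 5 without the block. Ifitm3 was the exception that fell (-0.61 ± 0.17). Klrd1, for the NK-type receptor CD94, had 14.9 and 16.2 CPM, against 332 and 351 CPM (-4.45 ± 0.23, adjusted p = 5.82e-12). Flt3, the growth factor receptor of dendritic cells, had 10.8 and 4.25 CPM, against 66.4 and 55.6 CPM (-2.92 ± 0.36), and Zbtb46, a transcription factor of classical dendritic cells, fell by 3.30 ± 0.59. Plac8 fell, with 361 and 294 CPM, against 1017 and 852 CPM (-1.53 ± 0.19). On the class II list 1 of 10 rose and 4 fell, and H2-Ab1 was not called (-0.23 ± 0.10, adjusted p = 0.105). The 3 comparisons share the sums of the Ccr2/Fcgr4 cells.

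Within the Ccr2/Fcgr4 cells, the UMIs of Plac8 and Cxcl9 were more concentrated in a few cells than those of Mrc1, although in replicate 1 the 3 genes were found in like shares of cells, and H2-Ab1 was found in nearly all cells. Cells were thinned to 2000 UMIs each, which left out none. A Plac8 UMI was then found in 51 of 255 and 20 of 177 (11.3%) of the Ccr2/Fcgr4 cells of replicates 1 and 2 (26.7% and 16.9% before thinning), against 4.02% and 0.490% in the Vcam1 class. Plac8 also gave UMIs in 7.48% and 10.0% of epithelial cells, and in replicate 2 the interval of the Ccr2/Fcgr4 cells (7.04 to 16.9) held the epithelial share but lay above the share in the Vcam1 class. The 26 and 18 cells highest in Plac8 among the Ccr2/Fcgr4 cells held 83.1% and 98.3% of its thinned UMIs. Ly6c2 was found in 12.5% and 6.21% (20.4% and 11.3% before thinning), against 1.34% and 0 of 204 cells in the Vcam1 class, which allows a share of up to 1.47%, and in 0 epithelial cells after thinning. Cxcl9 was found in 19.2% and 1.13% (25.9% and 2.26% before thinning), against 8.04% and 0% in the Vcam1 class, with 0.935% and 0% in epithelial cells. Mrc1 was found in 21.96% and 23.7% (46.3% and 51.4% before thinning), against 7.59% and 4.90% in the Vcam1 class, and the 26 and 18 cells highest in it held 59.5% and 59.3% of its UMIs. H2-Ab1 was the most even of these, with 18.5% and 16.5% of UMIs in the highest 26 and 18 cells. Plac8 and Ly6c2 met in the same cells: 37 of the 52 and 12 of the 20 cells with Ly6c2 also held Plac8, which 68 of 255 and 30 of 177 cells held in all. Of the 118 and 91 cells with Mrc1, 23 and 8 held Plac8. In replicate 1, 30 of the 66 cells with Cxcl9 held Plac8 and 18 held Mrc1, against 118 of 255 with Mrc1 in all. These counts describe cells of 1 library and move with depth per cell.

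**Figure D4:**
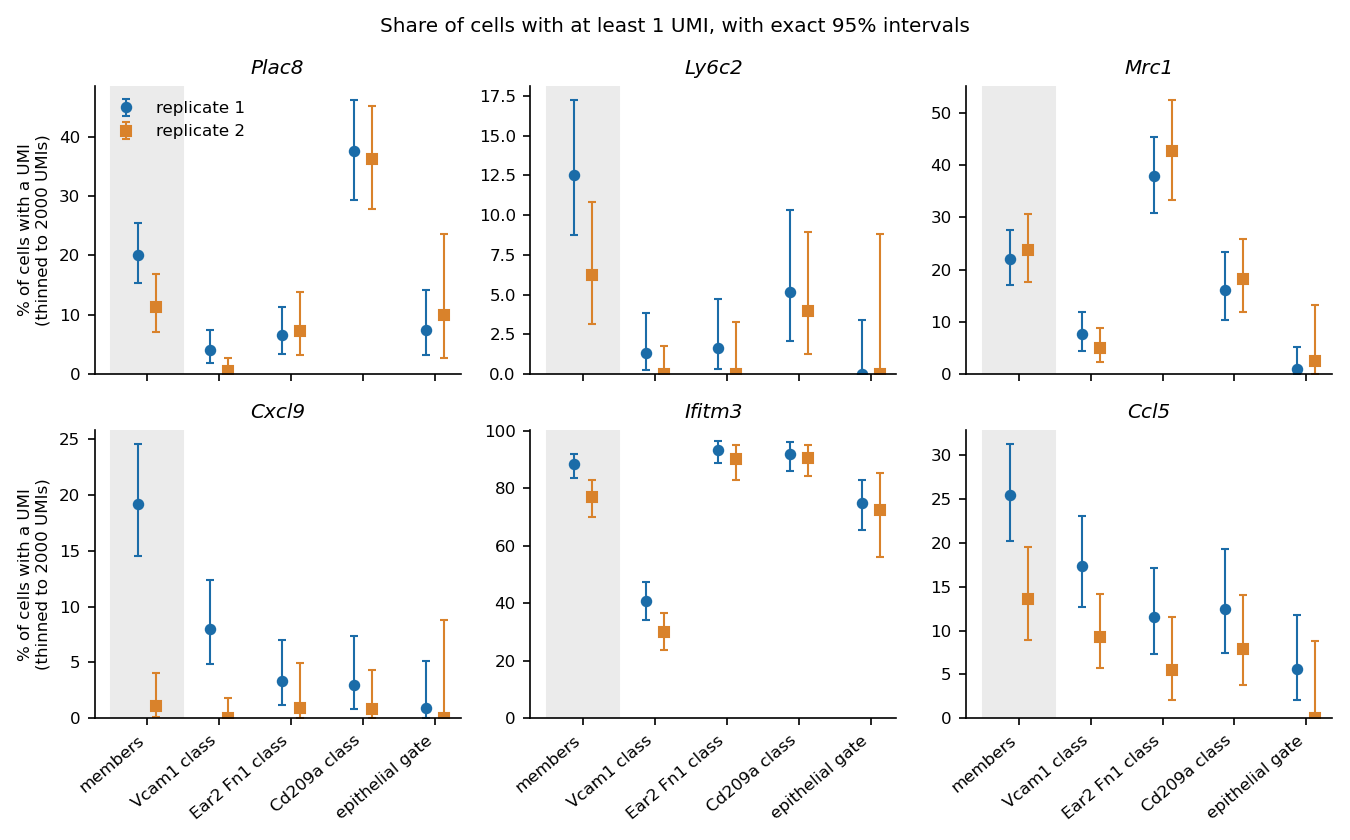
Percent of cells with at least 1 UMI of 6 genes after thinning each cell to 2000 UMIs, by class and library. Exact 95% binomial intervals cover counting error only, and "members" are the Ccr2/Fcgr4 cells. The epithelial gate took C1q-low cells outside the other classes. It gives a background, perhaps too low, for genes that epithelial cells lack. Plac8, Ly6c2 and Mrc1 were found in more of the Ccr2/Fcgr4 cells than of the Vcam1 class in both libraries.

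The cells were then split by which of the 2 receptor genes had more UMIs. Fcgr4-leaning cells numbered 122 and 82, and Ccr2-leaning cells 95 and 70, with 38 and 25 ties left aside, and their medians were 5931.5 and 6550 UMIs in Fcgr4-leaning cells and 5214 and 5883.5 UMIs in Ccr2-leaning cells. Cxcl9, AW112010 and Ccl8 were among the genes higher in Fcgr4-leaning cells, and Retnla, Mgl2 and S100a6 among the lower. Of 6466 genes tested, 15 (0.232%) were higher and 21 (0.325%) lower, and 34 of the 36 had the same sign in each library. Here too the signs come from the libraries that gave the calls and add no support. With uncalled genes included, log2 folds in replicate 1 and replicate 2 correlated weakly (Pearson 0.134, Spearman 0.0993). Without the library block edgeR's test called 0 and 0 genes, with 183 and 216 at an unadjusted p under 0.05, so edgeR's calls were made only with the block. DESeq2, which kept the block, called 5 and 15. DESeq2 did not call Cxcl9 (adjusted p = 0.225), Il18bp (0.127), Ccl8 (0.192), Irf7 (0.0521) or S100a4 (0.534).

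Cxcl9 had 803 and 88.6 CPM in Fcgr4-leaning cells, against 31.7 and 0 CPM in Ccr2-leaning cells (log2 fold 4.72 ± 0.81, adjusted p = 0.00427). Replicate 1 carried this contrast, with Cxcl9 in 45 of 122 Fcgr4-leaning and 11 of 95 Ccr2-leaning cells. In replicate 2 it was in 4 of 82 Fcgr4-leaning and 0 of 70 Ccr2-leaning cells, which allows a share of up to 4.29%, and 40 of the 47 UMIs came from 1 cell. AW112010, a transcript induced by interferon and annotated as a long non-coding RNA, had 1195 and 443 CPM, against 393 and 196 CPM (1.42 ± 0.19, adjusted p = 0.00048). Il18bp, for a decoy of interleukin-18, had 104 and 24.5 CPM, against 17.6 and 10.7 CPM (2.17 ± 0.46). Ccl8 had 1171 and 537 CPM, against 538 and 83.2 CPM (1.64 ± 0.33). Irf7 and Lgals9 rose by 1.10 and 1.19. The other genes of the interferon gamma list were mostly not called: 2 of 15 tested rose, Cxcl9 and Serpina3g, with a list median of 0.98, against -0.02 over all genes. On the type I interferon list 1 of 22 rose (Irf7) and none fell.

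On the other side, Mgl2 had 56.8 and 54.7 CPM in Fcgr4-leaning cells, against 279 and 363 CPM in Ccr2-leaning cells (-2.47 ± 0.31, adjusted p = 0.000278). Retnla had 137 and 81.0 CPM, against 1833 and 152 CPM (-2.92 ± 0.48), a log2 fold of -3.72 in replicate 1 and -0.88 in replicate 2. S100a6 had 507 and 477 CPM, against 1202 and 1078 CPM (-1.21 ± 0.18), S100a4 fell by 1.65 ± 0.32 and S100a10 by 1.501 ± 0.26. Lpl, the lipoprotein lipase gene, fell by 1.39 ± 0.24. Ear2 and Fn1, which the rule limited together but not singly, moved with these genes: Ear2 had 51.0 and 28.3 CPM, against 145 and 286 CPM, and Fn1 had 26.7 and 56.5 CPM, against 109 and 166 CPM. Among cells with no Ear2 or Fn1 UMI, 9 genes were higher and 11 lower, of which 6 and 9 were also called over all the cells. Cxcl9, AW112010, Serpina3g, Mgl2, Retnla and S100a10 were called there, and S100a6, S100a4, Lpl, Il18bp, Ccl8, Irf7 and Lgals9 were not. The part of cells close to the Ear2 Fn1 class in this split was not tested. Of 10 classical monocyte genes tested in the split, 2 fell (S100a4 and S100a6) and none rose. Ly6c2 had 199 and 104 CPM, against 51.1 and 17.1 CPM, and missed the threshold (2.25 ± 0.54, adjusted p = 0.0568). It was called under 5 alternatives, among them cells with no Ear2 or Fn1 UMI (3.43, adjusted p = 0.019) and doublets removed (2.84, adjusted p = 0.0206), and not by DESeq2 (adjusted p = 0.456). Plac8 had 320.4 and 305 CPM, against 219 and 228 CPM, and was not called (0.48 ± 0.26, adjusted p = 0.62). Mrc1, Csf1r, Cx3cr1, Itgax, Cd274 and H2-Ab1 were not called. Under alternatives, Mrc1 was called lower among cells with no Pf4 UMI (-1.30, adjusted p = 0.0351) and with a gate of 5 UMIs (-0.96, adjusted p = 0.027). H2-Ab1 was called higher when only the classes compared were fitted (0.19). Neither gene was called by DESeq2 or without the block.

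**Figure D5:**
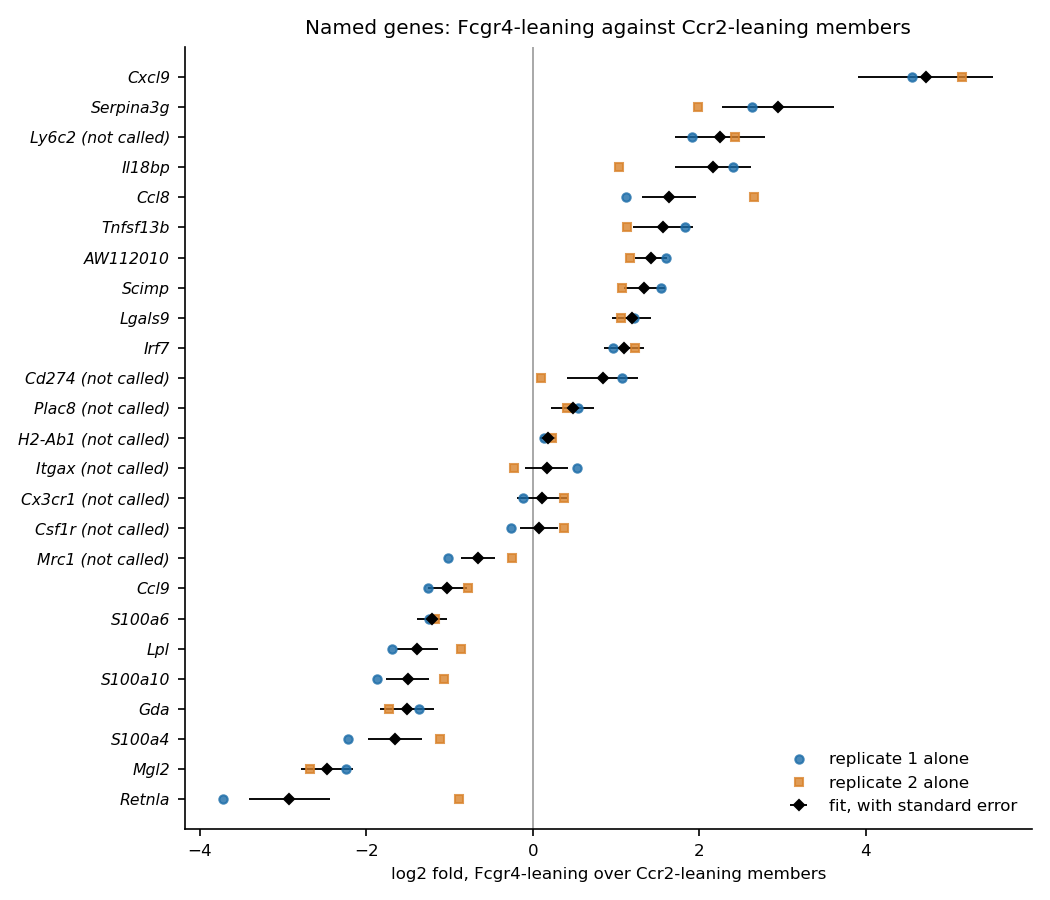
Log2 fold of Fcgr4-leaning over Ccr2-leaning Ccr2/Fcgr4 cells for 25 named genes, with the fitted value and its standard error (diamonds) and each library alone (circles and squares); Gzmc, with 2 UMIs in the Ccr2-leaning cells, is left out. Cxcl9 is at the top with 4.72 and Retnla at the bottom with -2.92.

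Ranked by the smaller of the 2 libraries' ratios to the next highest class, among 1778 genes that reached 50 CPM in the Ccr2/Fcgr4 cells of both libraries, the leading gene outside the gates was Ccl5. It had 695 and 520.3 CPM, against 306 CPM in the Vcam1 class of replicate 1 and 196 CPM in the Spp1 class of replicate 2, the next highest classes, ratios of 2.27 and 2.65. The 26 and 18 Ccr2/Fcgr4 cells highest in Ccl5 held 84.4% and 97.3% of thinned Ccl5 UMIs, with up to 146 and 155 UMIs in 1 cell, and the share of cells with a UMI was 25.5% and 13.6% (42.0% and 21.47% before thinning), against 5.61% and 0% in epithelial cells. The gate genes Fcgr4, Ms4a4c and Clec12a and the few-cell gene Gzmc followed. After these, Trafd1, which limits Toll-like receptor signalling, led its next class by ratios of 1.23 and 1.27 (98.6 and 74.8 CPM), and Dusp2, Tpst2, Tor1aip1 and Lpxn by less than 1.5.

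The 2 libraries of Ccr2/Fcgr4 cells differed from each other in some genes described above. Il1b, for the inflammatory cytokine interleukin-1 beta, had a median of 4 UMIs per cell in replicate 1 and 24 in replicate 2, or 1435 and 5566 CPM, and it was higher in replicate 2 in all 7 gated classes. Fibroblast markers summed to 142 and 21.3 CPM in the Ccr2/Fcgr4 cells, against 15.6 and 15.2 CPM in the Vcam1 class, where Pdgfra was at 0. There were 5 of 6 such markers with UMIs in both libraries of the Ccr2/Fcgr4 cells, and their part in the results was not tested. With 1 library of each kind no test between the libraries was possible.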

How the data were processed

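Single-cell 3′ libraries (10x Chromium, version 2 chemistry per the labels' protocols) of 2 samples were used. The deposited matrices hold raw UMI counts for 27998 genes and 737280 barcodes, for which the submitters' processing notes name Cell Ranger 2.2.0 and the mm10 build. No cell annotation was used. Cells and classes were gated on UMIs as described above, with no clustering. The members and lists were chosen with earlier results of these data known. Counts were summed per class and library (7 classes) and tested by the quasi-likelihood method of edgeR 4.0.16 (R 4.3.3) after filterByExpr and TMM normalization, with Benjamini-Hochberg adjustment over all genes tested, with 23 gate genes left out. All classes entered 1 fit to share the estimate of spread, leaving 6 residual degrees of freedom (8 for the split by receptor). The method was also run on simulated counts, with results not reported here. Those counts held no library effect, so the run could not test the use of the block. The library was a block because classes of a library come from 1 capture. Library differences of the Ccr2/Fcgr4 cells and of the other classes correlated across 7511 genes (Pearson 0.147 to 0.342), a description only. CPM were computed here from the deposited counts. Doublets were marked with Scrublet in scanpy 1.11.5 at 0.8% per 1000 barcodes and kept in the main results, and thinning used seed 1. Named genes were, per comparison, the 5 largest rises and falls among called genes of at least 50 CPM with the same sign in each library, up to 2 each way per list within a limit of 45 genes (25 in the others), and 10 fixed genes (Cxcl9, Cd274, Nos2, Itgax, H2-Ab1, Mrc1, Ly6c2, Csf1r, Cx3cr1, Plac8) with the gate genes. List members outside this rule are named from the 25 lists to show each list. Some genes that the rule or the lists hold are not reported here. Alternatives were DESeq2 1.42.0, other scaling and filters, and other gates. Positions are GENCODE M21 (GRCm38), found for 116 of 116 named identifiers. The total UMIs per library limit precision, and genes sharing near-identical sequence may exchange reads.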

Additional observations from a re-analysis of the deposited data

How the results depend on the processing

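Against the Vcam1 class (313 higher, 201 lower), DESeq2 called 157 and 64 genes, the fit without the replicate block 89 and 44, and sums thinned to the smallest class 63 and 47; all 89 and all 44 were among the main calls. After seeing the data, cells with a Pf4 UMI were removed (202 higher) or cells with an Ear2 or Fn1 UMI (128 lower). Against the Ear2 Fn1 class (838, 871), DESeq2 called 526 and 533, no block 527 and 555, and thinned sums 345 and 328. Against the Cd209a class (935, 883), DESeq2 called 574 higher and thinned sums 404 and 382. For the receptor split (15, 21), DESeq2 called 5 higher, no low-count filter 59 and 73, no block 0 and 0, only the classes compared 63 and 60, gates after thinning 11 lower, thinned sums 6 and 7, cells without Pf4 13 lower, and cells without Ear2 or Fn1 9 and 11. Thinned sums tested fewer genes; other causes were not tested. The mean share of Ccr2/Fcgr4 cells (13.8%) was 10.3% with a gate of 5 UMIs, 6.58% with gates after thinning, 8.13% without Pf4 and 9.71% without Ear2 or Fn1. Among named genes called in the main fit or in the alternative, only Ms4a8a changed sign (log2 fold -0.046, thinned sums). Without the block 26 of 50 named genes against the Vcam1 class and all 18 called in the split lost their call. With 1 library left out, folds are values with no test. Against the Vcam1 class, 18 and 14 of 50 named folds moved beyond the spread without replicates 1 and 2. None of the named genes called in the main fit changed sign. The naming rule asked for the same sign in each library, so this was set in advance for all but the fixed genes and adds no support.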
